A study of Mus musculus with 33 samples.

Results

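Counts assigned to Esr1, which encodes estrogen receptor alpha, were described in embryonic mouse kidneys together with Esr2, which encodes estrogen receptor beta, and with Pgr and Greb1, which estrogen receptor alpha induces in reproductive tissues and breast cancer cells. These 4 genes were taken by symbol from the 35349 gene rows of the table. The set was chosen by the Esr1 counts, which were higher in kidneys with a mutant Six2 allele in these same libraries, so its own differences are a description and carry no test. The other genes were measured to see whether estrogen targets moved along with it.

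RNA of whole embryonic kidneys was sequenced from 3 genotypes of Six2, which encodes the homeodomain transcription factor that maintains nephron progenitors. At embryonic day 11.5 (E11.5) there were 5 knockout embryos (4 female and 1 male), 5 heterozygous embryos (2 female and 3 male, in 6 libraries) and 6 wild-type embryos (4 female and 2 male). At E15.5 there were 4 heterozygous and 4 wild-type specimens, each group with 1 female and 3 males and each specimen sequenced in 2 batches. The labels name neither the targeted allele nor the strain, and do not say whether a specimen was 1 animal or a pool, so the p-values measure the spread between specimens. The titles of the E15.5 heterozygous libraries begin with the letters GCE, which the labels do not explain.

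The 33 libraries held 10.82 to 42.07 counts each in units of 1e+06. In batch 1 at E11.5, genes that collect ribosomal RNA reads took 0.867% to 11.6% of counts in knockout libraries, 3.49% to 17.2% in heterozygous libraries and 18.8% to 24.8% in wild-type libraries, against 0.201% to 0.441% in all batch 2 libraries of that stage and 0.373% to 1.02% at E15.5. All knockout embryos but 1 were female, and in batch 1 the 3 heterozygous embryos were all male and the 3 knockout embryos all female. The 11 nephron progenitor markers together had a median of 408 CPM (counts scaled to a library size of 1e+06) in knockout kidneys, against 1231 CPM in wild-type kidneys at E11.5. Markers of cells that make or answer to sex steroids were low: the 12 gonad, adrenal and steroid cell markers summed to a median of 11.4 CPM in knockout, 10.9 CPM in heterozygous and 10.3 CPM in wild-type kidneys at E11.5, and to 7.05 CPM in heterozygous and 7.14 CPM in wild-type kidneys at E15.5. Foxl2, the ovarian granulosa cell factor, was at 0 counts in heterozygous kidneys at E11.5 and in both groups at E15.5. The highest sums of the 12 markers at E11.5 were 38.1 CPM in a knockout, 18.7 CPM in a heterozygous and 13.1 CPM in a wild-type kidney. The 2 Mullerian duct markers summed to medians of 0.870, 0.603 and 0.678 CPM in knockout, heterozygous and wild-type kidneys at E11.5. Their highest sums were 3.78, 2.62 and 13.0 CPM in the same order. The part of these differences in the results was not tested.

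Estrogen receptors are nuclear receptors: bound by estradiol, they attach to DNA at palindromes of GGTCA and its complement TGACC, recruit coactivators and change transcription of nearby genes. Without the hormone they are held by heat shock chaperones. The ligand-binding part of the receptor is also used in mouse genetics, where a Cre recombinase fused to a mutated copy of it enters the nucleus when tamoxifen is given. Alleles of that kind exist at many genes, Six2 among them. The deposited counts are sums over a whole gene and hold no read positions, so the kidney's own Esr1 transcript and a receptor sequence placed at the Six2 allele cannot be told apart here.

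Sequence upstream of the genes' start sites is printed to show which of these letters lie where estrogen receptors could attach near the receptor gene itself and near the 2 targets. The windows are the 250 bases before the RefSeq start site in build GRCm38.p6, read 5′ to 3′ on the gene's own strand, with GGTCA or TGACC in capitals. The printed Esr1 window lies inside the gene in the GENCODE annotation (chr10:4611593-5005614), which starts further upstream than this RefSeq start.
Esr1, chr10:4611739-4611988, plus strand: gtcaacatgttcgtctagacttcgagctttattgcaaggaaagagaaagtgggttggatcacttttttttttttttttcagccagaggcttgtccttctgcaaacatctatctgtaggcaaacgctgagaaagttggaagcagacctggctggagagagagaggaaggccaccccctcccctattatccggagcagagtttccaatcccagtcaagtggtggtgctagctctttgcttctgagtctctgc
Pgr, chr9:8899583-8899832, plus strand: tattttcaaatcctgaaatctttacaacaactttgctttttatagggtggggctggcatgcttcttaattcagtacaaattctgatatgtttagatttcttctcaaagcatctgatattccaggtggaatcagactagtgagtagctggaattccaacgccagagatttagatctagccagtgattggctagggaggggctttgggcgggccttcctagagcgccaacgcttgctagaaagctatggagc
Greb1, chr12:16800887-16801136, minus strand: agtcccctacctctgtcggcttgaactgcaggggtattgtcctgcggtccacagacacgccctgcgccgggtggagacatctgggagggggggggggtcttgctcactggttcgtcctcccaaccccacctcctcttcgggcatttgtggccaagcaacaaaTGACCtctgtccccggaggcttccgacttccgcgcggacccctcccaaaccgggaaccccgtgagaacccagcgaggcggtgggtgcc
The Greb1 window holds 1 TGACC, at position -88 from the start site, and the Esr1 and Pgr windows hold neither motif. The other RefSeq start of Greb1 has 2 such motifs upstream of it, that of Esr2 has 2, and the other start of Esr1 has 0. Counting 50 bases past the start as well, 40.5% of all 32851 windows hold GGTCA or TGACC on either strand, and 24 of the 61 windows of the estrogen response genes described below do (39.3%). The full palindrome GGTCANNNTGACC, which reads the same on both strands and contains the shorter motifs, is in 23 windows of all genes (0.07%) and in 0 of those 61. A match or its lack in so short a window says nothing about binding, which in these genes is also known from distant enhancers.

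Esr1 (ENSMUSG00000019768, protein coding, chr10:4611593-5005614, plus strand, mm10) was nearly silent in wild-type kidneys at E11.5 and clearly counted in every kidney with a mutant Six2 allele. Unless plain totals are named, CPM values use library sizes after trimmed-mean scaling. Knockout embryos had 8.19, 5.61, 2.96, 5.05 and 7.43 CPM of Esr1. Heterozygous embryos had 13.4, 15.4, 13.2, 10.9 and 12.9 CPM. Wild-type embryos had 0.088, 0.613, 0.237, 0.985, 0.052 and 0.094 CPM, from 1, 9, 4, 20, 1 and 2 counts. The 3 genotypes did not overlap, and the heterozygous embryos, with 1 targeted copy, were above the knockout embryos, with 2. At E15.5 the heterozygous specimens had 16.7, 17.1, 17.2 and 17.3 CPM and the wild-type specimens 7.46, 7.37, 6.88 and 7.83 CPM. Wild-type kidneys of that stage thus carried Esr1 counts of their own, and the heterozygous specimens were all above them.

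**Figure D1:**
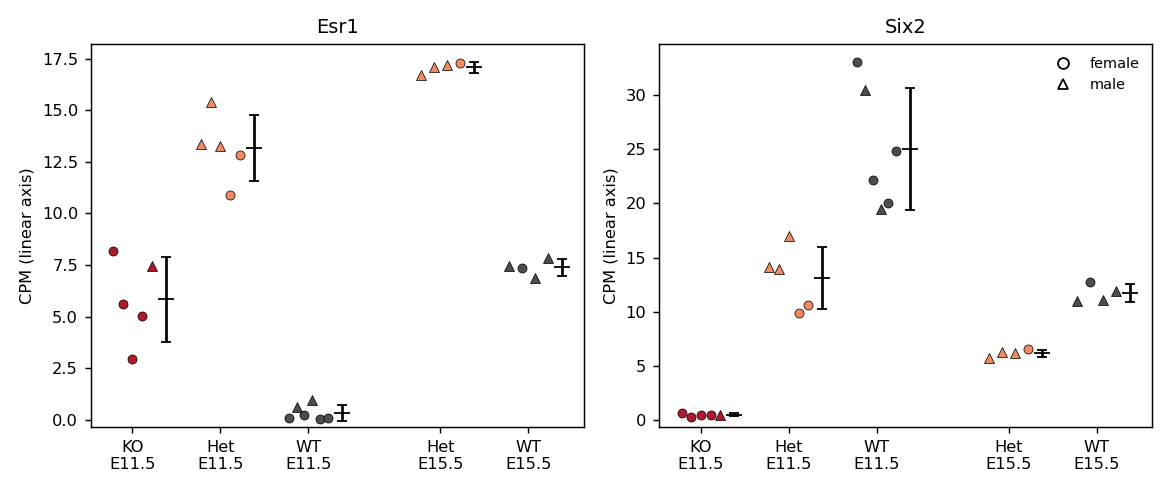
Esr1 (left) and Six2 (right) in each specimen, as CPM on linear axes, by genotype and stage; circles are female and triangles male specimens, and the bars beside them give the mean ± SD. Esr1 is lowest and Six2 highest in wild-type kidneys at E11.5, while knockout kidneys have almost no Six2 and an Esr1 level between those of heterozygous and wild-type kidneys.

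The mean Esr1 level was 5.85 ± 2.07 CPM in knockout, 13.2 ± 1.60 in heterozygous and 0.345 ± 0.376 in wild-type kidneys at E11.5 (SD, n = 5, 5 and 6), and 17.1 ± 0.269 in heterozygous and 7.39 ± 0.392 in wild-type kidneys at E15.5 (SD, n = 4 each). In order of level, heterozygous kidneys at E15.5 stood above heterozygous kidneys at E11.5, followed by wild-type kidneys at E15.5, knockout kidneys and wild-type kidneys at E11.5. Of these neighbours, wild-type kidneys at E15.5 and knockout kidneys overlapped and the others did not. Fitted log2 fold changes (edgeR, with the standard error, SE) were 4.19 ± 0.39 in knockout against wild-type, 5.1 ± 0.37 in heterozygous against wild-type and -0.91 ± 0.31 in knockout against heterozygous kidneys at E11.5, and 1.20 ± 0.05 in heterozygous against wild-type kidneys at E15.5. In wild-type kidneys Esr1 was 4.26 ± 0.34 higher at E15.5 than at E11.5 on the same log2 scale.

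The heterozygous effect looked different between the stages on the 2 scales. As a log2 fold change it was 3.92 ± 0.44 (SE) smaller at E15.5, where wild-type kidneys had a higher level to start with. As a difference in CPM it was 12.8 ± 0.73 at E11.5 and 9.69 ± 0.24 at E15.5 (heterozygous minus wild-type mean, SE). By the choice described above, these Esr1 values carry no test. At E11.5 the difference in mean Esr1 was 5.50 ± 0.94 CPM in knockout minus wild-type kidneys and -7.30 ± 1.17 CPM in knockout minus heterozygous kidneys.

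The fitted Esr1 difference between knockout and heterozygous kidneys depended on how the batches and sexes were handled. In batch 1 alone, where sex separates these groups, the log2 fold change was 0.55 ± 1.11 in knockout against heterozygous kidneys. That fit takes its sex effect from wild-type libraries with 1, 9 and 4 Esr1 counts. By plain totals the batch 1 libraries had 8.81, 5.36 and 3.16 CPM in knockout and 8.70, 15.4 and 11.5 CPM in heterozygous kidneys, so the unadjusted values were mostly lower in knockouts there too. In batch 2 alone it was -1.20 ± 0.43, and with the title prefix (a letter and number that the labels do not explain) as a block it was -0.16 ± 0.65. The log2 difference from wild-type kidneys was within 4.01 to 4.93 for knockout and 4.38 to 5.21 for heterozygous embryos in either batch alone.

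One heterozygous embryo was sequenced in both batches, which shows how far a library alone can move Esr1. Its batch 1 library, with 17.2% ribosomal counts, had 131 Esr1 counts, or 8.70 CPM of the plain library total (exact 95% Poisson interval 7.28 to 10.3, counting error only). Its batch 2 library had 415 counts, or 15.8 CPM (14.3 to 17.4). Six2 was at 14.0 and 13.9 CPM in these libraries. These were the lowest and the highest Esr1 values of the 6 heterozygous libraries of that stage. At E15.5 all 4 heterozygous specimens had 17.4 to 18.4 CPM of the plain totals in batch 1 and 16.6 to 17.1 in batch 2, and the wild-type specimens had 7.07 to 7.93 and 7.16 to 8.60.

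**Figure D2:**
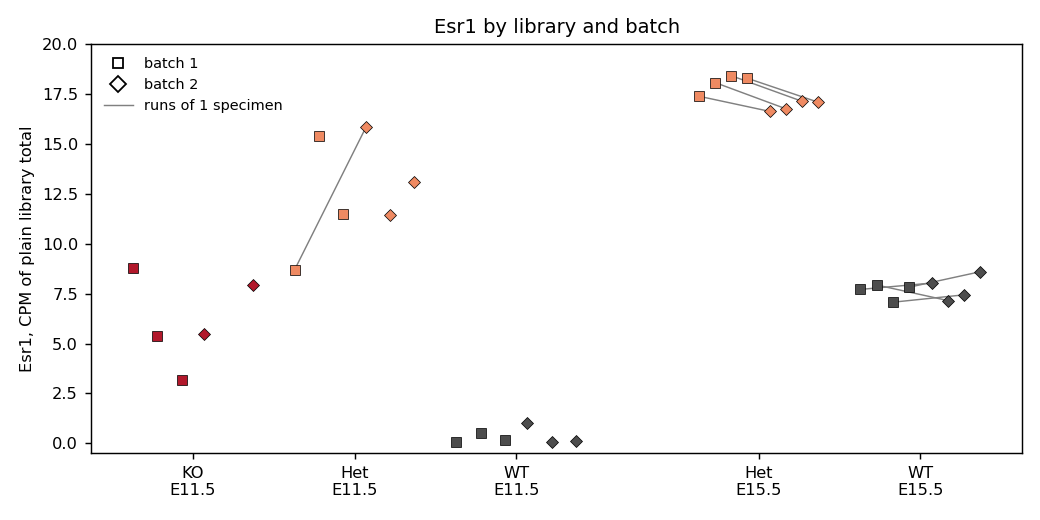
Esr1 as CPM of the plain library total (linear axis) in each of the 33 libraries, with squares for batch 1, diamonds for batch 2 and grey lines joining runs of 1 specimen. The heterozygous embryo run in both batches at E11.5 spans 8.70 to 15.8 CPM, while wild-type libraries of that stage reach at most 1.05.

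Six2 (ENSMUSG00000024134, chr17:85684277-85688274, minus strand, mm10) checks the genotype labels and gives a scale for Esr1. Six2 averaged 0.472 CPM in knockout, 13.1 in heterozygous and 25.0 in wild-type kidneys at E11.5, and 6.15 in heterozygous and 11.7 in wild-type kidneys at E15.5. The level in heterozygous kidneys was 52.4% of wild-type at E11.5 and 52.7% at E15.5, and in knockout kidneys 1.89%. Per Six2 count, knockout embryos had 12.3, 19.3, 6.00, 11.3 and 16 Esr1 counts, over no more than 13 Six2 counts each. Heterozygous embryos had 0.946, 1.11, 0.781, 1.1 and 1.21 Esr1 counts per Six2 count, and wild-type embryos 0.003 to 0.051. At E15.5 the ratio was 2.66 to 2.94 in heterozygous and 0.577 to 0.678 in wild-type specimens. The ratio had no overlap between groups at either stage. Esr1 was chosen for its rise and Six2 is the targeted gene, so this separation adds no evidence.

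The Esr1 level above the wild-type mean of its stage was also set against the remaining Six2 transcript. In knockout kidneys it was 12.2 ± 4.88 CPM of Esr1 for each CPM of Six2 (SD, n = 5). In heterozygous kidneys it was 1.00 ± 0.164 at E11.5 (SD, n = 5) and 1.58 ± 0.0468 at E15.5 (SD, n = 4), without overlap of the stages. In whole kidneys, fewer cells that carry a transcript and less of it in each cell cannot be told apart. Scaled by gene length, so that genes can be compared, Esr1 was at 0.428 CPM per kilobase in knockout, 0.961 in heterozygous and 0.025 in wild-type kidneys at E11.5, and at 1.25 in heterozygous and 0.540 in wild-type kidneys at E15.5. Six2 stood at 0.223, 6.17 and 11.8 CPM per kilobase in knockout, heterozygous and wild-type kidneys at E11.5. The Esr1 length used is that of the whole gene row, 13680 bases. The Esr1 values per kilobase would not hold for counts that come from a part of the gene.

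**Figure D3:**
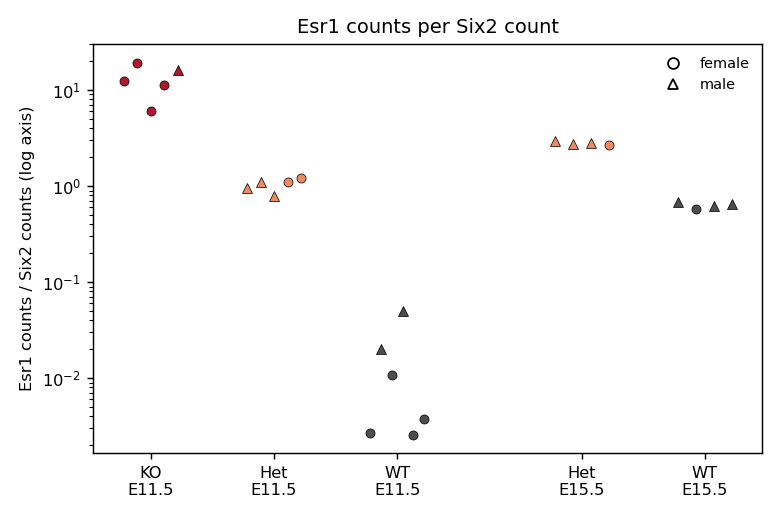
Esr1 counts divided by Six2 counts in each specimen (log axis), by genotype and stage; circles are female and triangles male specimens. The ratio runs from 6.00 to 19.3 in knockout, 0.781 to 1.21 in heterozygous and 0.003 to 0.051 in wild-type kidneys at E11.5, and lies at 2.66 to 2.94 in heterozygous and 0.577 to 0.678 in wild-type kidneys at E15.5.

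Esr2 (ENSMUSG00000021055, chr12:76120419-76177259, minus strand, mm10), the other nuclear estrogen receptor, did not pass the test in any comparison. Knockout embryos had 2.71, 3.10, 2.96, 1.68 and 2.73 CPM, heterozygous embryos 2.33, 2.02, 2.4, 2.2 and 3.11 CPM, and wild-type embryos 1.50 to 2.72 CPM with a median of 2.17. At E15.5 heterozygous specimens had 1.67, 1.85, 1.81 and 1.72 CPM and wild-type specimens 1.98, 1.63, 2.07 and 1.83 CPM. All groups overlapped with their neighbours in level. The log2 fold change was 0.28 ± 0.21 in knockout (SE, edgeR quasi-likelihood adjusted p = 0.496) and 0.18 ± 0.21 in heterozygous against wild-type kidneys at E11.5 (adjusted p = 0.832, 95% confidence interval -0.26 to 0.61). At E15.5 it was -0.10 ± 0.10 in heterozygous against wild-type kidneys (adjusted p = 0.857, interval -0.32 to 0.12). Knockout and heterozygous kidneys differed by 0.11 ± 0.22 (adjusted p = 0.848). In wild-type kidneys the value at E15.5 against E11.5 was -0.22 ± 0.18 (adjusted p = 0.323), and the heterozygous effects of the stages differed by -0.25 ± 0.25 (adjusted p = 1).

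Pgr (ENSMUSG00000031870, chr9:8899833-8968611, plus strand, mm10), the progesterone receptor gene and the usual readout of estrogen receptor alpha in uterus and breast, rose with stage and did not pass the test between genotypes. Knockout embryos had 4.04, 3.00, 3.45, 2.80 and 2.56 CPM, heterozygous embryos 1.54, 2.97, 2.95, 1.61 and 2.04 CPM, and wild-type embryos 1.28 to 4.15 CPM with a median of 2.72. The 3 groups overlapped. The mean was 2.22 ± 0.701 CPM in heterozygous (SD, n = 5) and 2.54 ± 1.04 CPM in wild-type embryos (SD, n = 6). The log2 fold change was 0.28 ± 0.21 in knockout (adjusted p = 0.503) and -0.12 ± 0.22 in heterozygous against wild-type kidneys (adjusted p = 0.904, 95% interval -0.58 to 0.34), and 0.40 ± 0.23 in knockout against heterozygous kidneys (adjusted p = 0.384).

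At E15.5 Pgr stood at 7.48, 7.56, 6.85 and 6.38 CPM in heterozygous and 6.1, 6.67, 6.505 and 6.42 CPM in wild-type specimens. The groups overlapped, and the log2 fold change was 0.13 ± 0.07 (SE, adjusted p = 0.640, interval -0.01 to 0.28). Wild-type kidneys at E15.5 had 1.38 ± 0.24 more Pgr on the log2 scale than at E11.5 (adjusted p = 5.66e-05). This is the comparison in which Esr1 itself was higher at E15.5, and 52.5% of the 17362 genes tested passed in it. Batch was left out of its fit, and stage and batch cannot be fully told apart. The heterozygous effect on Pgr differed between the stages by 0.34 ± 0.34 (adjusted p = 1).

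Greb1 (ENSMUSG00000036523, chr12:16670615-16800886, minus strand, mm10), a cofactor gene induced by estrogen in breast cancer cells, passed the test as higher in knockout against wild-type kidneys. It did not pass in heterozygous against wild-type kidneys, nor between knockout and heterozygous kidneys. Knockout embryos had 46.9, 49.5, 44.4, 49.5 and 64.7 CPM. Heterozygous embryos had 31.1, 32.9, 33.6, 31.5 and 46.5 CPM, and wild-type embryos 29.1, 28.5, 47.2, 27.0, 27.3 and 45.6 CPM. Of the heterozygous and wild-type embryos, 1 and 2 reached the range of the knockout embryos, so the groups overlapped. The mean was 51.0 ± 7.95 CPM in knockout, 35.1 ± 6.43 in heterozygous and 34.1 ± 9.56 in wild-type kidneys (SD, n = 5, 5 and 6).

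The log2 fold change of Greb1 was 0.58 ± 0.16 in knockout against wild-type kidneys (SE, edgeR adjusted p = 0.0371), in a comparison where 7.14% of 16141 genes passed. It was 0.06 ± 0.17 in heterozygous against wild-type kidneys (adjusted p = 0.935, 95% interval -0.29 to 0.42) and 0.51 ± 0.17 in knockout against heterozygous kidneys (adjusted p = 0.117). The call was not stable. Over the 16 fits that left out 1 embryo of any genotype, the value ran from 0.35 to 0.73. It was lowest without knockout replicate 5 (adjusted p = 0.257), and 9 of these fits lost the call. The call was lost as well with batch left out (0.58, adjusted p = 0.093), with the title prefix as a block (0.48, adjusted p = 0.193), in batch 1 (0.28, adjusted p = 0.449) and batch 2 (0.83, adjusted p = 0.231) alone, and without libraries over 5% ribosomal counts (0.73, adjusted p = 0.114). An antisense gene, Gm48140, shares 736 of the 9580 exonic bases of Greb1 and has no row of its own, and the strandedness of the counting is not given in the sources used here.

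At E15.5 Greb1 varied little. Heterozygous specimens had 29.7, 32.0, 31.5 and 31.4 CPM and wild-type specimens 29.5, 31.0, 30.4 and 31.3 CPM. The log2 fold change was 0.02 ± 0.04 (SE, adjusted p = 0.933, 95% interval -0.06 to 0.10), in specimens whose Esr1 level differed 2.31-fold. A link of Greb1 to the Esr1 counts was not tested. Between E15.5 and E11.5 wild-type kidneys it was -0.11 ± 0.16 (adjusted p = 0.577), and the heterozygous effects of the 2 stages differed by -0.04 ± 0.22 (adjusted p = 1). Per kilobase of the deposited whole-gene lengths, Greb1 was the most abundant of the 4 genes in each group, at 5.30, 3.65 and 3.55 CPM per kilobase in knockout, heterozygous and wild-type kidneys at E11.5, against 0.371, 0.260 and 0.297 for Pgr and 0.780, 0.714 and 0.631 for Esr2.

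**Figure D4:**
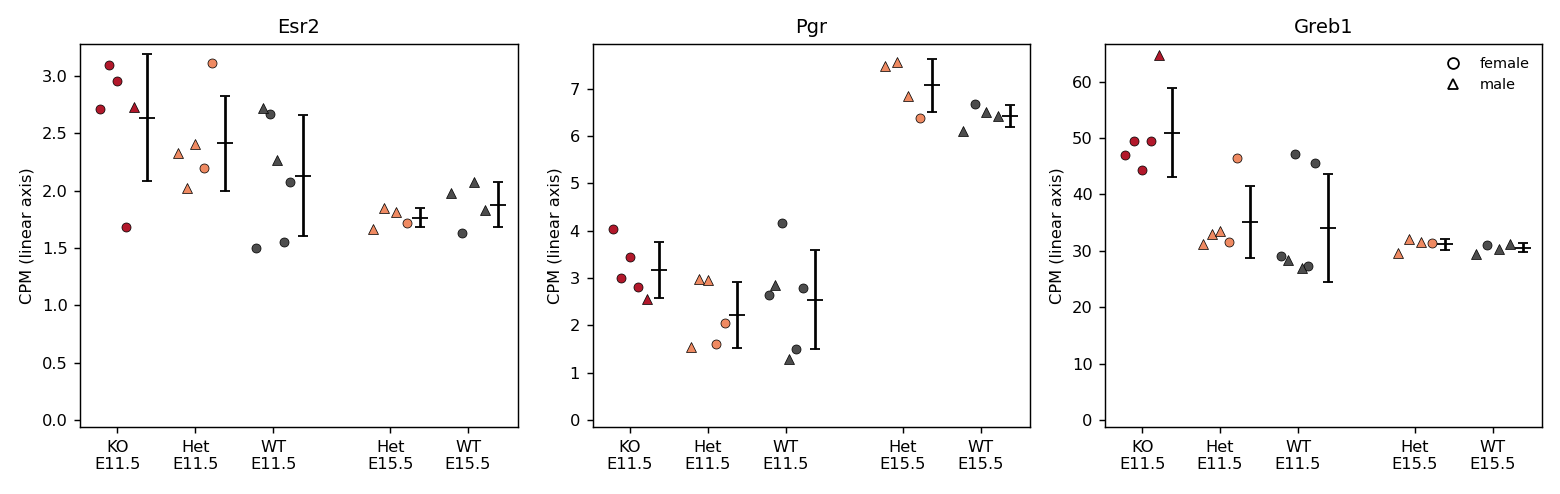
Esr2, Pgr and Greb1 in each specimen, as CPM on linear axes, by genotype and stage; circles are female and triangles male specimens, and the bars beside them give the mean ± SD. Esr2 overlaps between the genotypes of each stage, Pgr is higher at E15.5 than at E11.5 in both genotypes, and the Greb1 values of knockout embryos (44.4 to 64.7 CPM) are reached by 1 heterozygous and 2 wild-type embryos.

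A wider set of 63 genes known to rise with estrogen in human breast cells (46 genes) or in mouse reproductive tissues and pituitary (20 genes, 3 shared) was read in the same fits. In heterozygous against wild-type kidneys 0 of the 50 genes tested passed at E11.5, where 0.0681% of all genes did, and 0 of the 58 tested passed at E15.5, where 0.57% of all genes did. At such shares counts of 0 are near the background and do not show whether the set moved. At an unadjusted p under 0.05 there were 5 and 8 genes of the set, and the share of all genes at that level was not counted. DESeq2 called 0 at E11.5 and 1 at E15.5, the cyclin gene Ccnd1. The median log2 fold change of the set was 0.00 at E11.5, against 0.01 over all genes, and 0.02 at E15.5, against 0.00. These are the groups with the highest Esr1 levels at each stage, and a link of the set to the Esr1 counts was not tested.

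Ccnd1 was at 495 ± 9.93 CPM in heterozygous and 459 ± 11.8 CPM in wild-type kidneys at E15.5 (SD, n = 4 each), a log2 fold change of 0.10 ± 0.02 (SE, edgeR adjusted p = 0.0809). At E11.5 it was 0.13 ± 0.06 in heterozygous against wild-type kidneys (adjusted p = 0.583). Other widely used targets stood close to wild-type in heterozygotes of either stage, with the E11.5 value given before that of E15.5. The proto-oncogene Myc differed by -0.01 ± 0.10 and 0.02 ± 0.04 on the log2 scale, the secretory pathway factor gene Xbp1 by 0.03 ± 0.08 and 0.10 ± 0.05, and the insulin-like growth factor binding protein gene Igfbp4 by 0.01 ± 0.09 and -0.001 ± 0.03. The corepressor gene Nrip1 differed by 0.10 ± 0.06 and 0.01 ± 0.03, the chemokine gene Cxcl12 by 0.09 ± 0.11 and -0.02 ± 0.04, the retinoic acid receptor gene Rara by -0.02 ± 0.08 and -0.03 ± 0.05, and the growth factor gene Igf1 by -0.07 ± 0.21 and 0.06 ± 0.05. The adjusted p of these genes was 0.62 or more. The difference of the heterozygous effects between the stages passed in 0 of 57 genes of the set (3 at an unadjusted p under 0.05, 0 by DESeq2), where 0.00576% of all genes passed.

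In knockout against wild-type kidneys 13 of the 50 tested genes of the set passed (26.0%, against 7.14% of all genes), 7 higher and 6 lower, with a median of 0.06 on the log2 scale against -0.0021 over all genes. The comparison shares its wild-type embryos with the heterozygous comparison. Among the genes that fell, Tpbg, which encodes the trophoblast glycoprotein, was at 67.0 ± 10.01 CPM in knockout and 138 ± 18.0 CPM in wild-type kidneys (log2 -1.08 ± 0.09). Myc was at 24.2 ± 3.41 and 46.1 ± 5.76 CPM (-0.91 ± 0.10), the survival gene Bcl2 at 64.4 ± 7.30 and 116 ± 19.6 CPM (-0.87 ± 0.08), and the secreted glycoprotein gene Stc2 at 1.43 ± 0.339 and 3.37 ± 0.281 CPM (-1.22 ± 0.20). Slc9a3r1, a scaffold protein gene, fell by 0.82 ± 0.10 on the log2 scale and Lrig1, an inhibitor of receptor tyrosine kinases, fell by 0.74 ± 0.16. In 5 of these 6 genes no knockout embryo overlapped a wild-type embryo, and Lrig1 was the exception. The genes were picked by passing in this same comparison, so their separation adds no evidence. The share of all genes without overlap was not counted.

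The genes of the set that rose in knockout kidneys, picked in the same way, overlapped wild-type kidneys in all 7 cases. They were Greb1, Oxtr (the oxytocin receptor gene, 3.82 ± 2.29 CPM in knockout and 2.01 ± 0.600 CPM in wild-type kidneys, log2 0.98 ± 0.24), Mreg (9.08 ± 2.63 and 5.24 ± 1.53 CPM, 0.81 ± 0.21), Ccnd1 (0.31 ± 0.06), the lysosomal protease gene Ctsd (0.28 ± 0.06), Xbp1 (0.26 ± 0.08) and Nrip1 (0.23 ± 0.06). Leaving out 1 embryo at a time ended the call of Xbp1 in 11 and of Nrip1 in 10 of 16 fits. Among the fixed targets, Igf1 (0.28 ± 0.21, adjusted p = 0.495), Igfbp4 (0.11 ± 0.09, adjusted p = 0.547), Cxcl12 (0.09 ± 0.11, adjusted p = 0.706) and Rara (-0.11 ± 0.08, adjusted p = 0.506) did not pass. Macrophage markers, all 5 of which rose in knockout kidneys, summed to a median of 119 CPM there and 61.0 CPM in wild-type kidneys, and ureteric bud markers to 361 and 252 CPM. All 11 nephron progenitor markers fell. The part of these shifts in the set's calls was not tested.

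Both directions were called by DESeq2 (8 higher and 6 lower), with no filter on low counts (8 and 6) and with sex left out (7 and 6). Other fits called fewer of the higher genes. With batch left out of the model, 5 genes of the set passed, 0 higher and 5 lower. With the title prefix as a block, 3 passed, all lower (Bcl2, Myc and Tpbg). Batch 1 alone called 5, of which Xbp1 was higher, and batch 2 alone called 3, all lower. Without the libraries over 5% ribosomal counts the 6 lower genes passed and 0 of the higher ones. Over all 8 of these other fits the log2 fold change was 0.79 to 1.20 for Oxtr, 0.67 to 1.07 for Mreg and 0.27 to 0.51 for Ccnd1. For these genes calls were lost at folds not far from those above. Other higher genes moved more: Greb1 ran from 0.28 to 0.83, Ctsd from 0.23 to 0.56 and Xbp1 from 0.09 to 0.42. Nrip1 ran from -0.12 to 0.28 and so changed sign. Without knockout replicate 5 the count was 7, against 13 with all embryos. Tpbg and Bcl2 passed in each of these fits. Of the 13 genes not tested at E11.5 for low counts, Tff1, Areg, Egr3 and Gal had at most 18 counts in any specimen and Prl had 0 in all. The remaining 8 (Pdzk1, Sybu, Mlph, Lcn2, Sprr2f, Inhbb, Cyp26a1 and Padi1) were tested at E15.5.

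**Figure D5:**
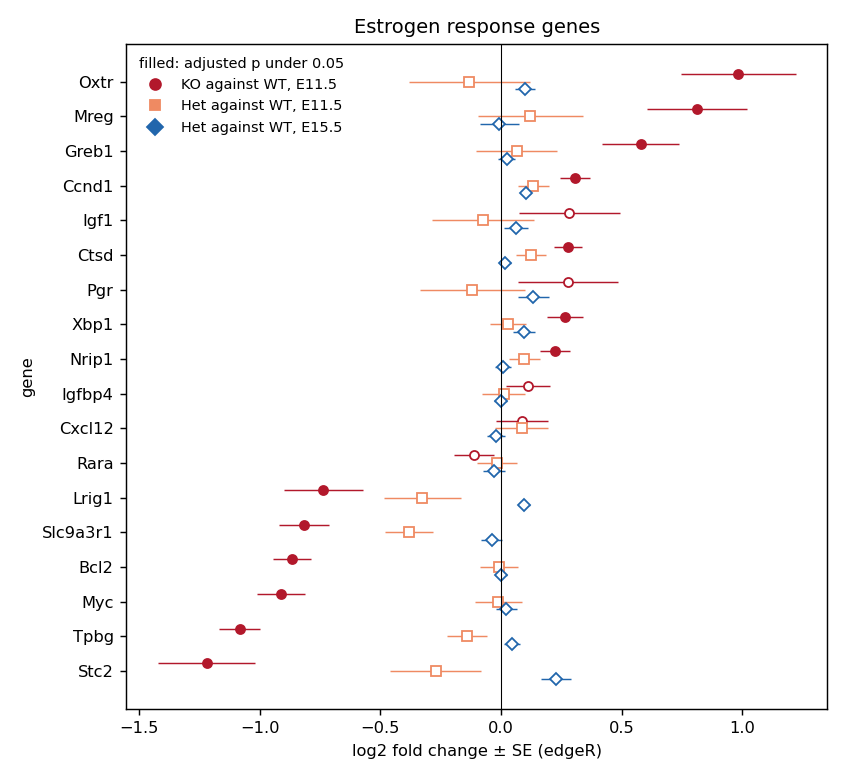
Log2 fold changes ± SE (edgeR, linear axis) of the estrogen response genes that passed in knockouts against wild types and of the fixed targets, for knockout against wild-type and heterozygous against wild-type kidneys at E11.5 and heterozygous against wild-type kidneys at E15.5; filled symbols have an adjusted p under 0.05. Only knockout symbols are filled, from -1.22 (Stc2) to 0.98 (Oxtr), and the heterozygous values of Bcl2 and Myc lie near 0.

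In knockout against heterozygous kidneys, where the knockout had less Esr1, 6 of 50 genes of the set passed (12%, against 3.77% of all genes). Oxtr was higher (1.11 ± 0.26). Stc2 (-0.95 ± 0.22), Tpbg (-0.94 ± 0.09), Myc (-0.90 ± 0.11), Bcl2 (-0.86 ± 0.09) and Slc9a3r1 (-0.44 ± 0.11) were lower. This comparison shares its knockout embryos with that against wild-type kidneys. Leaving out 1 embryo at a time ended the call of Oxtr in 5, of Slc9a3r1 in 8 and of Stc2 in 4 of 16 fits. Under 8 other settings Oxtr ran from 0.51 to 1.67 and lost its call in 5, and Slc9a3r1 ran from -0.53 to 0.0008 and kept its call in 3. The count was 0 in batch 1 alone and 3 in batch 2 alone.

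Among other receptor and coregulator genes, Rxra, Gata3 and Nrip1 passed in knockout against wild-type kidneys. These were 5.88% of the receptors and 11.1% of the coregulators tested, against 7.14% of all genes. The shares were the same in knockout against heterozygous kidneys, against 3.77% of all genes. Of 17 nuclear receptors and relatives tested in knockout against wild-type kidneys, Esr1 aside, only the retinoid X receptor gene Rxra passed (0.26 ± 0.05, adjusted p = 0.00466). Of 18 coregulators and pioneer factors, Gata3 (0.52 ± 0.13), which is also a ureteric bud marker, and Nrip1 passed. Against heterozygous kidneys, Rxra was again higher (0.21 ± 0.06), and the chaperone genes Fkbp4 (-0.23 ± 0.06) and Fkbp5 (-0.20 ± 0.05), whose products sit in steroid receptor complexes, were lower. In heterozygous against wild-type kidneys 0 genes of these lists passed at E11.5 or at E15.5. Of all genes 0.0681% and 0.57% passed there, so these counts are near the background. At an unadjusted p under 0.05 there were 1 and 0 receptors and 2 and 3 coregulators, and the share of all genes at that level was not counted.

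Among genes of estrogen synthesis, Cyp19a1 and Hsd17b1 were close to absent, while Hsd17b12 and Hsd17b7 were well counted. Of the 15 genes of synthesis and inactivation in the list, 7 had too few counts to be tested at E11.5. Cyp19a1, the aromatase gene needed to make estrogens, had 0 counts in knockout, 1 in heterozygous and 0 in wild-type kidneys at E11.5, and 0 in heterozygous and 1 in wild-type kidneys at E15.5. A count of 0 over a group allows up to 0.0391 CPM in knockout and 0.0271 CPM in wild-type kidneys at E11.5 and 0.0137 CPM in heterozygous kidneys at E15.5 (3 counts over the group, counting error only). Hsd17b1, which converts estrone to estradiol, averaged 0.127, 0.142 and 0.121 CPM in knockout, heterozygous and wild-type kidneys at E11.5. Hsd17b12 averaged 60.5, 64.1 and 60.8 CPM and Hsd17b7 22.7, 23.7 and 22.8 CPM in the same groups. Of the 8 genes of synthesis and inactivation tested at E11.5, 0 passed in any comparison between genotypes, nor did any of the 11 tested at E15.5. Of all genes 7.14% passed in knockout against wild-type, 0.0681% in heterozygous against wild-type and 3.77% in knockout against heterozygous kidneys at E11.5, and 0.57% at E15.5, so that counts of 0 in lists this short are near the background. At an unadjusted p under 0.05 there were 2 in knockout against wild-type, 1 in heterozygous against wild-type and 0 in knockout against heterozygous kidneys at E11.5, and 1 at E15.5. For these enzymes too, the share of all genes at that level was not counted.

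The genes next to Esr1 on chromosome 10 were read to see whether the region moved with it. Ccdc170, which lies 49.4 kb upstream, averaged 0.123 CPM in knockout, 0.165 in heterozygous and 0.160 in wild-type kidneys at E11.5, and 2.73 in heterozygous and 2.65 in wild-type kidneys at E15.5. Syne1, 15.3 kb downstream, averaged 12.1, 11.1 and 10.6 CPM in knockout, heterozygous and wild-type kidneys at E11.5 and 19.2 and 19.1 CPM in heterozygous and wild-type kidneys at E15.5. Of 11 neighbours tested at E11.5, 0 passed in knockout against wild-type or in heterozygous against wild-type kidneys, and Mthfd1l alone passed in knockout against heterozygous kidneys (-0.33 ± 0.08). At E15.5, 0 of 13 passed. With 7.14%, 0.0681%, 3.77% and 0.57% of all genes called in these comparisons, such counts are near the background and do not show whether the region moved. At an unadjusted p under 0.05 there were 3, 2 and 2 in knockout against wild-type and in heterozygous against wild-type kidneys at E11.5 and E15.5. The share of all genes at that level was not counted, so these numbers have nothing to stand against.

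Between E15.5 and E11.5 wild-type kidneys, Esr1 and several of its neighbours were both higher at the later stage. Of the 13 neighbours 8 rose and 0 fell (61.5% passed, against 52.5% of all genes, 4590 higher and 4518 lower). A share so near that of all genes does not show whether the region moved with Esr1. Those that rose were Ccdc170, Akap12 (1.54 ± 0.15), Myct1 (0.99 ± 0.22), Syne1 (0.80 ± 0.14), Plekhg1 (0.68 ± 0.08), Mthfd1l (0.23 ± 0.08), Fbxo5 (0.17 ± 0.06) and the neuropeptide gene Vip, at 1.85 ± 0.191 CPM at E15.5 and 0.0569 ± 0.0682 CPM at E11.5. The pioneer factor gene Foxa1, whose product opens chromatin for estrogen receptor alpha in breast cells, passed with 2.69 ± 0.363 CPM at E15.5 and 0.0157 ± 0.0385 CPM at E11.5 (SD, n = 4 and 6). In heterozygous kidneys at E11.5, with 13.2 CPM of Esr1, Foxa1 was at 0.0327 ± 0.0604 CPM, and Ccdc170 and Vip were as low as in wild-type kidneys. These genes were near the floor at that stage, and their bearing on the Esr1 counts was not tested.

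Other hormone receptors differed between the stages in wild-type kidneys, where 52.5% of all genes passed. Of 20 receptors tested 11 rose and 6 fell (85% passed). Among those that rose, the vitamin D receptor gene Vdr (3.71 ± 0.26), the estrogen-related receptor gene Esrrg (2.86 ± 0.24), the thyroid hormone receptor gene Thrb (2.65 ± 0.31), the mineralocorticoid receptor gene Nr3c2 (2.37 ± 0.15), the glucocorticoid receptor gene Nr3c1 (1.62 ± 0.10), Esrrb (1.53 ± 0.55), the membrane estrogen receptor gene Gper1 (1.44 ± 0.18), Thra (0.39 ± 0.10) and Esrra (0.38 ± 0.11) were higher at E15.5, as was Pgr. Nr2f1 (-1.66 ± 0.12), Rxrg (-0.74 ± 0.23), Rara (-0.70 ± 0.09), Nr2f2 (-0.65 ± 0.24), Rarg (-0.63 ± 0.11) and Rxrb (-0.36 ± 0.08) were lower. Among 20 coregulators (70% passed) 3 rose, Foxa1, Gata3 (0.58 ± 0.20) and Ncoa1 (0.57 ± 0.13), and 11 fell, among them Fkbp5 and Ncoa3 (both -0.17 ± 0.07), Med1, Ncoa2, Pelp1, Carm1, Nrip1, Crebbp and Ep300.

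Genes of estrogen clearance also appeared by E15.5. Sult1e1, the estrogen sulfotransferase gene, was at 0.440 ± 0.0793 CPM at E15.5 and 0.0157 ± 0.0385 CPM at E11.5, and Hsd17b2, which turns estradiol into estrone, at 0.593 ± 0.195 and 0.0459 ± 0.0589 CPM. Both passed, as did others such as Cyp11a1 (2.42 ± 0.47), Hsd17b12 (0.40 ± 0.15), Hsd17b4 (0.26 ± 0.08) and Srd5a1 (0.25 ± 0.08), while Hsd3b1 fell (-2.64 ± 0.81). Of the estrogen response set 38 of 57 tested genes passed (66.7%, against 52.5% of all genes), 31 higher and 7 lower, with a median of 0.52 against -0.02 over all genes. Batch was not in this fit, so stage and batch cannot be fully told apart here either. The largest rises were in Pdzk1 (46.1 ± 3.47 CPM at E15.5 and 0.108 ± 0.114 CPM at E11.5), Sprr2f (1.02 ± 0.214 and 0.0086 ± 0.0211 CPM), Inhbb (1.61 ± 0.0698 and 0.107 ± 0.148 CPM), Oxtr (19.95 ± 0.532 and 2.01 ± 0.600 CPM), Car12 (2.87 ± 0.19 on the log2 scale), Fhl2 (2.73 ± 0.18), Muc1 (2.34 ± 0.21) and Cyp26a1 (2.22 ± 0.39). The falls were in Cxcl12 (-1.78 ± 0.13), Tpbg (-1.07 ± 0.11), Rara, Nrip1 (-0.64 ± 0.16), Mybl1 (-0.61 ± 0.23), Kdm4b (-0.36 ± 0.08) and Tpd52l1 (-0.34 ± 0.12). Several of these genes, such as the tubule scaffold gene Pdzk1, are markers of maturing kidney epithelium, and the E15.5 specimens, summed over their runs, held more counts than those of E11.5.

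Across all 24 specimens, with stage, E11.5 batch and sex removed, the genes whose log2 CPM ran most like Esr1 among 17361 were Anks1b (Pearson r = 0.85), Fam111a (0.848), Gfra2 (0.839), Padi4 (0.836) and Cul2 (0.834). Those that ran most against it were Ocm (-0.857), Adam11 (-0.852) and Sema4g (-0.852). Gfra2, a coreceptor gene of the GDNF family, was at 3.06, 3.34 and 1.93 CPM in knockout, heterozygous and wild-type kidneys at E11.5, a far smaller spread than that of Esr1. Esr2 had r = 0.407 (rank 2106), Greb1 0.37 (rank 2549), Pgr 0.0979 (rank 7092) and Six2 -0.547. The specimens share genotype groups and library quality, genes are not independent of each other, and these values are a description.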

How the data were processed

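RNA of whole mouse kidneys was sequenced on Illumina libraries, per the labels' protocols. The authors deposited raw counts per gene symbol with a gene length, and 0 columns were left unused. Per the submitters' processing notes, tools and build were STAR 2.4.0h1, featureCounts 1.4.6 and mm10; annotation, strandedness and the handling of multiply mapped reads are not given in the sources used here. Identifiers and positions came from the GENCODE annotation of mm10, and promoter windows from RefSeq (GRCm38.p6).

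Groups came from genotype and age in the labels. Runs of 1 specimen (same technical replicate number at E15.5, same title apart from the replicate number at E11.5) were summed, which left 24 specimens from 33 libraries. With group and batch means removed, the runs of 8 of 8 E15.5 specimens correlated best with each other (0.157 to 0.53, against at most 0.094 with others).

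Tests on these counts used edgeR 4.0.16 (R 4.3.3 with limma 3.58.1): filterByExpr by group (minimum count 10, minimum total 15), TMM scaling, and quasi-likelihood F tests with Benjamini-Hochberg adjustment at 0.05 over all genes tested, a threshold that "passed", "rose" and "fell" refer to. The E11.5 fit held genotype, sex and batch, which equals the replicate number of the titles, over 16 embryos. The E15.5 fit held genotype and sex over 8 specimens. The stage comparisons held group and sex over all 24, with batch left out. The scripts were checked on simulated counts. Ribosomal counts are those of Yam1, Lars2, mt-Rnr1, mt-Rnr2, Gm15564, Mir6236 and n-R5-8s1, rows that collect such reads. CPM per kilobase used the deposited lengths. Log2 CPM for correlations used a prior count of 2.

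Genes and lists were chosen with earlier results of these data known. Named were the 4 genes and Six2; response genes that passed, up to 8 in each direction, and 8 fixed targets; receptors, coregulators, enzymes and neighbours that passed; and the 5 highest and 3 lowest correlations with Esr1. Alternatives were DESeq2 1.42.0, no filter, other covariates, each batch alone, no libraries over 5% ribosomal counts, and leaving out each specimen. Intervals on counts cover counting error only. Values of some listed genes are not reported here.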

Additional observations from a re-analysis of the deposited data

Results flagged for a closer look

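In 25 groups of values checked for a specimen far from the rest of its group, 4 were found, and chance flags about 1 in 20 groups. Knockout replicate 4 had the lowest Esr2 level of its group, 1.68 CPM, with the next at 2.71. Knockout replicate 5, the male of that group, had the highest Greb1 level, 64.7 CPM, with the next at 49.5. Heterozygous replicate 5 at E11.5 had the highest Greb1 level of its group, 46.5 CPM, with the next at 33.6. Wild-type replicate 4 at E11.5, a male, had the highest ratio of Esr1 to Six2 counts of its group, 0.0506, with the next at 0.0201. The value of Greb1 without knockout replicate 5 stands beside its result above.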

How the results depend on the processing

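The E11.5 comparisons depended on how batch was handled. The count of estrogen response genes that passed in knockout against wild-type kidneys, 13 with batch as the replicate block, was 5 with no replicate block, 3 with the title prefix as the block, 5 and 3 in batch 1 and batch 2 alone and 6 without libraries over 5% ribosomal counts. In knockout against heterozygous kidneys it was 6 with the block, 3 without it, 3 with the title prefix, 0 and 3 in batch 1 and batch 2 alone. Leaving out 1 embryo gave 7 to 14 and 3 to 7, and 0 throughout for heterozygous kidneys at both stages, where DESeq2 alone gave 1 at E15.5. The cause was not tested. Between the wild-type stages the count of the set was 38 in the main fit and 40 by DESeq2. With batch 2 libraries alone at both stages it was 43, 33 higher and 10 lower. Of the 38 genes, 36 passed there, and Mybl1 did not. Nrip1 ran from -0.64 to -0.33 between the wild-type stages under the other settings.

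Greb1 in knockout against wild-type kidneys was 0.577 without the replicate block, 0.478 with the title prefix, 0.282 and 0.826 in batch 1 and batch 2, 0.731 without libraries over 5% ribosomal counts and 0.351 to 0.733 without 1 embryo. With the title prefix as the block, signs turned for Esr2 in knockout against wild-type (-0.0229) and against heterozygous kidneys (-0.146), for Pgr (-0.0788) and Nrip1 (-0.124) in knockout against wild-type kidneys, for Greb1 in heterozygous against wild-type kidneys (-0.0371) and for Slc9a3r1 in knockout against heterozygous kidneys (0.0008). Esr2 turned in batch 1 for heterozygous against wild-type kidneys (-0.278), in batch 2 for knockout against heterozygous kidneys (-0.256) and in the batch 2 runs at E15.5 (0.113). Without 1 embryo Esr2 ran from -0.015 to 0.26 and Greb1 from -0.063 to 0.177 in heterozygous against wild-type kidneys, and Greb1 from 0.208 to 0.643 in knockout against heterozygous kidneys, where 1 fit passed.

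Esr1 in knockout against heterozygous kidneys was -0.157 with the title prefix and 0.546 in batch 1, where the sex effect came from the wild-type embryos alone. At E15.5 it was 1.12 in the batch 2 runs, and its heterozygous mean was 17.6 CPM by plain totals. Counted over every result and other setting, 353 values kept direction and side of the threshold, 64 lost the call, 13 moved and 10 turned. Without 1 specimen 507 kept it, 52 lost it, 4 moved, 4 turned and 1 gained it.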

Other observations

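Within wild-type and heterozygous embryos at E11.5, Esr1 in CPM after trimmed-mean scaling was higher in males than in females. The split was seen only after the values were known and was not tested. The 2 wild-type males had 0.613 and 0.985 CPM and the 4 wild-type females 0.052 to 0.237 CPM. The 20 counts of the higher male give an exact 95% Poisson interval of 0.64 to 1.62 CPM of the plain library total. The 3 heterozygous males had 13.2 to 15.4 CPM and the 2 heterozygous females 10.9 and 12.9 CPM. By plain totals the heterozygous sexes overlapped, with 11.5 CPM in male replicate 3 and 13.1 CPM in female replicate 5. The heterozygous males were run in batch 1 (replicate 1 in both batches) and the females in batch 2 alone. Sex and batch can thus not be fully told apart in that group. The only knockout male had 7.43 CPM, within the 2.96 to 8.19 CPM of the knockout females. At E15.5 the only heterozygous female had the highest value of its group, 17.3 CPM, and the only wild-type female lay within the range of the males.

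Greb1 was spread unevenly within groups at E11.5 and hardly at all at E15.5. At E11.5 wild-type replicates 3 and 6 had 47.2 and 45.6 CPM and the other wild-type embryos 27.0 to 29.1 CPM, with nothing in between. Both are female, in different batches, and their Esr1 levels were 0.237 and 0.094 CPM, within the range of the low Greb1 embryos. At E15.5 the 8 specimens lay between 29.5 and 32.0 CPM.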
